A study of Homo sapiens with 3 samples.

Results

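The genes described here encode the subunits of the proteasome and the factors that assemble or regulate it. They were chosen by name alone, as every row of the count table whose symbol is PSMA, PSMB, PSMC, PSMD, PSME, PSMF or PSMG followed by a number. The rule found 46 of the 62680 rows, and 45 of these were among the 12270 genes compared, those whose counts scaled for depth (CPM) averaged 1 or more over the libraries (1 CPM was 19.4 to 19.9 counts). RNA was sequenced from HepG2, an established line of human liver cancer cells labelled wild type. The cells had been kept for 48 h with 20 µM A740003, 20 µM A438079 or phosphate-buffered saline (PBS), with 1 library for each. Both compounds are known as antagonists of the P2X7 receptor, an ATP-gated ion channel, and PBS served as their control. What the antagonists were dissolved in is not stated in the labels.

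Each library held between 19375523 and 19735589 expected counts, estimates of the reads per gene that need not be whole. The 9 hepatocyte markers examined were all above 1 CPM and summed to between 21838 and 23791 CPM, while PTPRC, CD3E, VWF, CDH5, COL1A1, COL1A2, DCN and KRT7, markers of leukocytes, endothelium, fibroblasts and bile duct cells, were listed at 0 in all 3 libraries. Other markers on those lists were present, with means of 977 CPM for LYZ, 34.8 CPM for CD68, 20.4 CPM for ACTA2, 84.9 CPM for KRT19 and 248 CPM for EPCAM, and 0.325 CPM for CD14 and 0.326 CPM for PDGFRB. The summed lists stood at 982, 984 and 1068 CPM for leukocytes, 19.2, 22.1 and 20.9 CPM for fibroblasts and 292, 342 and 366 CPM for bile duct cells with A740003, A438079 and PBS, and their part in the results was not tested. No library had a replicate, so no difference below was tested against the spread between cultures, and no p-value was calculated. The 95% intervals cover counting error only. A gene was called where its ratio between libraries was at least 1.5 in either direction and its interval excluded 1, and the counts below at 1.2-fold carry the same condition on the interval. In bulk RNA, fewer cells of a kind and less of an RNA per cell cannot be told apart.

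The proteasome degrades proteins tagged with ubiquitin. Its core is a barrel of stacked rings, in which the PSMA products form the outer alpha rings that gate the entry and the PSMB products form the inner beta rings, some of which cut peptide bonds. PSMC products are ATPases that unfold a substrate and thread it into the core, and with the PSMD products, which bind and remove ubiquitin, they form the regulatory cap. Under interferon, the catalytic subunits are exchanged for PSMB8, PSMB9 and PSMB10 to form the immunoproteasome, which favours peptides for display to T cells. PSME products are other activators of the core, PSMF1 encodes an inhibitor, and PSMG products are chaperones of core assembly. Cells whose proteasome is inhibited raise most of these genes together through the transcription factor NRF1, the product of NFE2L1, which binds the antioxidant response element with a small MAF partner.

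Promoter windows from RefSeq (GRCh38.p14), each running from 250 bases before to 50 bases after an annotated start, were found for 40 of the 46 genes. PSMA7, PSMB1, PSMB6, PSMB7, PSMD4 and PSMG3 had no window in the table. The 5 windows printed are those of the inducible subunits, which include the highest and the lowest ratio to PBS, and of PSMB3 and PSMG1, which both carry an antioxidant response element and lay on opposite sides of PBS. Capitals mark matches, on either strand, to the antioxidant response element (TGACNNNGC), the interferon-stimulated response element (GAAA, NN and GAAA in a row) or the gamma-activated site (TTCNNNGAA). A match to one motif may overlap a match to another. The windows lie at chr6:32853942-32854241, plus strand (PSMB9), chr6:32843998-32844297, minus strand (PSMB8, whose other window, upstream, is not printed), chr16:67936801-67937100, minus strand (PSMB10), chr17:38752491-38752790, plus strand (PSMB3) and chr21:39183402-39183701, minus strand (PSMG1).
PSMB9: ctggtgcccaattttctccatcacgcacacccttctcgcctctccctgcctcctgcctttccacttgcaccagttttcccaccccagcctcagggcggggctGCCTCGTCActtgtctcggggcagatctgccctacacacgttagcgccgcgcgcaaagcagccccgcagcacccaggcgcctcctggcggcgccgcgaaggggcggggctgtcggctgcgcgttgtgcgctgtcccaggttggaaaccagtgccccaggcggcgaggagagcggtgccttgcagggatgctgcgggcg
PSMB8: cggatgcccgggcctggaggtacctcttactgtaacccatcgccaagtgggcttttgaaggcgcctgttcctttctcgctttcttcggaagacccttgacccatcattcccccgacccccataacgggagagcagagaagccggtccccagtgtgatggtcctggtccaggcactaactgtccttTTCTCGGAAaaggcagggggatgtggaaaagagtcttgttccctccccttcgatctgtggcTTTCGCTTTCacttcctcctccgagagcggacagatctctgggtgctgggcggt
PSMB10: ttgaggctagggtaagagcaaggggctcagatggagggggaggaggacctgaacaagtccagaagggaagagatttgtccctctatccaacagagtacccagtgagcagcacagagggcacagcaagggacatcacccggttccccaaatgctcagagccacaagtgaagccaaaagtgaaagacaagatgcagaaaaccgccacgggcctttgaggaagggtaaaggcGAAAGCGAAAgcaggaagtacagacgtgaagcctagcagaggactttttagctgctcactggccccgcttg
PSMB3: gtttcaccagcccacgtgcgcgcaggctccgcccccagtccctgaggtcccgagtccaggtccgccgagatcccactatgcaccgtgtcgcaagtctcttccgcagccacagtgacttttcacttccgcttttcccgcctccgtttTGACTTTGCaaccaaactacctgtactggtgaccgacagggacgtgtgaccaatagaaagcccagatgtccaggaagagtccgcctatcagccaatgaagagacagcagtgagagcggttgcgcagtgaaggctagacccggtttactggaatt
PSMG1: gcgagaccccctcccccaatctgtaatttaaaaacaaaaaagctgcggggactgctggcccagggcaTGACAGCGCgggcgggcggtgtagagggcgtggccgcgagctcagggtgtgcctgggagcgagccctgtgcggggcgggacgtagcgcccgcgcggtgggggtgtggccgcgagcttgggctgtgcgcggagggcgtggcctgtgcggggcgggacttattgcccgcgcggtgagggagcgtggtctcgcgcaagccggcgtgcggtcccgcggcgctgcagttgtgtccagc

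The PSMB9 window holds an antioxidant response element whose first base is 148 bases before the start. PSMB3 and PSMG1 hold one at 104 and 183 bases before theirs. The windows of PSMB8 and PSMB10 hold an interferon-stimulated element at 4 and 21 bases before the start, and PSMB8 also holds a gamma-activated site 65 bases before it. A start of TAP1, which encodes a peptide transporter of the antigen presentation pathway, lies 488 bases from that of PSMB9 on the opposite strand. Over all the windows, the antioxidant response element was found in 15 of 40 proteasome genes (37.5%) and in 16.1% of the 27305 genes with a window. The interferon-stimulated element was found in 17.5% and 4.38%, and the ETS site (CCGGAAG) in 35.0% and 12.2%. The gamma-activated site was found in 15.0% and 9.38%, the CCAAT box (CCAAT) in 47.5% and 39.7% and the GC box (GGGCGG) in 70.0% and 48.3%. The TATA box (TATAAA) was found in 10.0% and 14.0%. Many genes with a window were not among the genes compared. Among those compared, the GC box was present in 7205 and absent from 2163, against 28 and 11 proteasome genes, a smaller share. The TATA box was present in 749 and absent from 8619, against 4 and 35, so its order also turned. The ETS site was present in 2257 and absent from 7111, against 14 and 25. The base composition of the windows was not matched, and a match describes the letters of a window and shows neither binding nor use.

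HepG2 cells held most proteasome RNAs at a high level, PSMA1 for example above 96.1% of the genes compared. Per length, the median of the 45 detected genes was 140.4, 136.4 and 139.5 FPKM (fragments per kilobase of transcript, scaled for depth) with A740003, A438079 and PBS, which is the order of every trio of values below. PSMA6, an alpha subunit, was the highest at 652, 656 and 705 FPKM. The lowest detected gene was PSMB9, at 3.68, 3.03 and 2.24 FPKM. In the PBS library, the alpha subunits lay between 113 FPKM (PSMA5) and 705 FPKM (PSMA6), the constitutive beta subunits between 90.3 FPKM (PSMB2) and 370 FPKM (PSMB1), and the ATPases between 104 FPKM (PSMC2) and 467 FPKM (PSMC3). The non-ATPase genes spread more widely, from 12.7 FPKM for PSMD5, a chaperone of base assembly, to 239 FPKM for PSMD4, a ubiquitin receptor. That width rested on PSMD5, PSMD9 (30.9 FPKM) and PSMD10 (60.2 FPKM). Without them the group ran from 69.5 FPKM (PSMD3) to 239 FPKM, no wider than the other groups. Thus the genes whose products stand together in a ring or cap were not at equal RNA levels in any library. PSMB11, the beta subunit of the thymus, had 0 counts in all 3 libraries, which allows up to 3 counts in each, an upper limit of 0.151, 0.155 and 0.154 CPM.

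**Figure D1:**
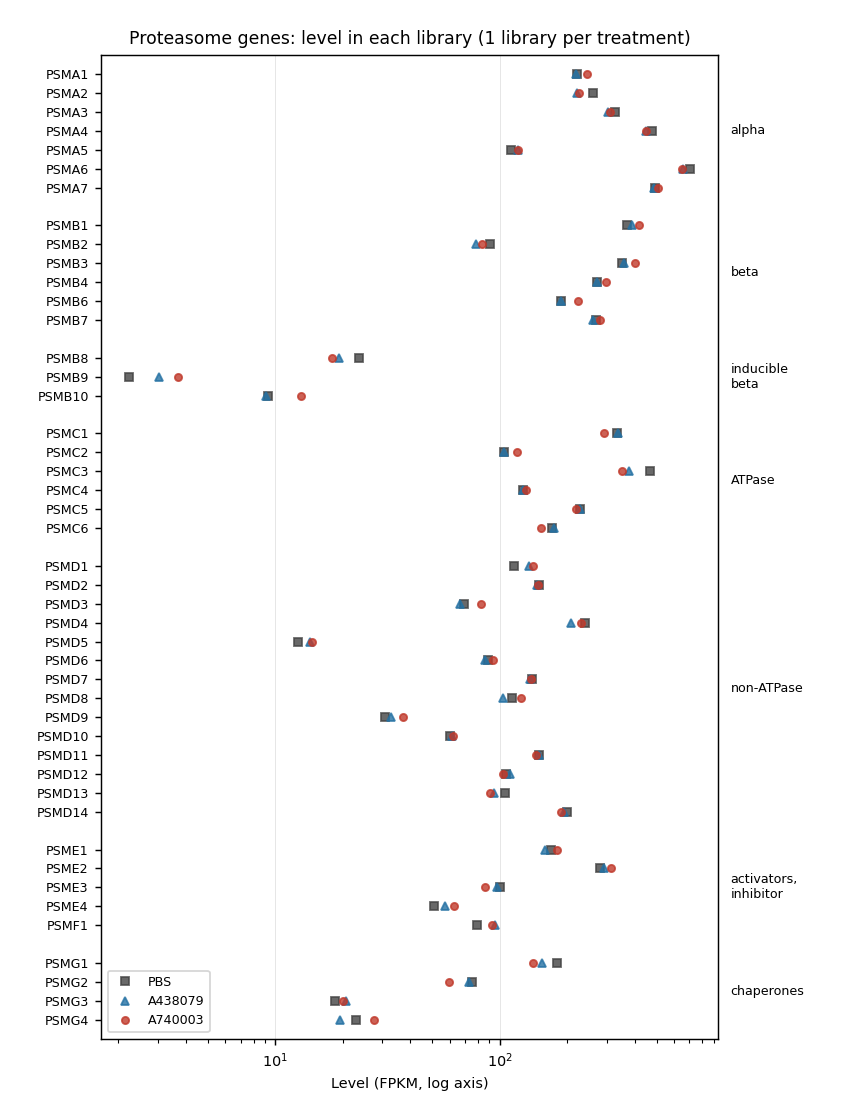
Level of each proteasome gene in the 3 libraries, in FPKM on a log axis, with genes grouped by role and 1 point per library. Within a gene the libraries lie close together, while genes spread from PSMB9 (2.24 FPKM with PBS) to PSMA6 (705 FPKM with PBS).

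With A740003 compared with PBS, the proteasome genes as a whole stayed near their control level. Their summed counts were 157365, 154383 and 152050, or 0.797% (95% Clopper-Pearson interval 0.793 to 0.801), 0.787% (0.783 to 0.791) and 0.785% (0.781 to 0.789) of all counts. The summed ratio to PBS was 1.01 (1.0 to 1.02) with A740003. Of the 45 genes compared, 1 (PSMB9) was called at least 1.5-fold higher, against 3.13% of all genes compared, and 0 were called lower, against 10.7%. The median log2 ratio was 0.03 over the proteasome genes, 24 of them above PBS, and 0.00082 over all genes. The spread was narrower among the proteasome genes, with an SD of log2 ratios of 0.22 against 0.56.

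With A438079 the proteasome genes also lay near PBS. The summed ratio to PBS was 1.02 (1.01 to 1.02), and 0 of the 45 genes were called in either direction, where 1.63% of all genes were called higher and 9.43% lower. PSMB9 alone had a ratio past 1.5, at 1.54, with an interval that includes 1. The median log2 ratio was 0.04, with 26 of 45 genes above PBS, beside -0.0037 over all genes. Log2 ratios had an SD of 0.14, against 0.50 over all genes. Both comparisons use the same PBS library, so any error in it enters both.

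Rarely counted genes scatter more than well counted ones, so the spread was also compared at a higher level. Of the 3719 genes averaging 50 CPM or more, a limit chosen after the data were seen, 38 were proteasome genes. Within 1.2-fold of PBS were 36 of these 38 (94.7%) with A740003 and all 38 with A438079, where all genes at that level reached 76.0% and 85.7%. Their log2 ratios had an SD of 0.16 with A740003 and 0.10 with A438079, beside 0.23 and 0.19 over all genes at that level. With the trend of GC content and transcript length removed, the SDs were 0.17 against 0.21 with A740003 and 0.11 against 0.17 with A438079. PSMB6 alone was past 1.2-fold higher with A740003 (1 of 38, against 16.4% of all genes at that level), and PSMG1 alone was past 1.2-fold lower (1 of 38, against 7.61%). None passed 1.2-fold with A438079, where 10.2% were higher and 4.17% lower. Over the 45 genes and all levels, 2 were past 1.2-fold higher with A740003 with an interval that excludes 1 (PSMB6 and PSMB9, against 14.7% of all genes) and 2 lower (PSMB8 and PSMG1, against 18.9%). PSMB10, at 1.21, was past 1.2-fold with an interval that includes 1. With A438079, 0 were past 1.2-fold higher (9.14%) and 0 lower (16.9%) with an interval that excludes 1, and PSMB9 was past it with an interval that includes 1. At 50 CPM or more the proteasome genes had the lower median, not the higher. Their median log2 ratio was -0.0078 (18 of 38 above PBS) against 0.05 over all genes with A740003, and 0.04 (22 of 38 above) against 0.07 with A438079. The narrower spread was seen mainly against PBS. Between the antagonist libraries, 94.7% of these proteasome genes and 95.3% of all genes at that level lay within 1.2-fold. The SDs of that comparison were 0.12 and 0.14.

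**Figure D2:**
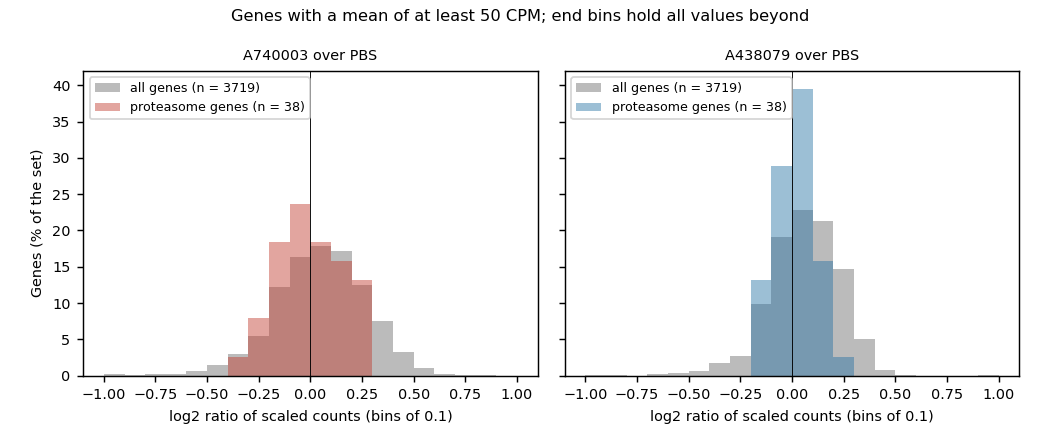
Distribution of log2 ratios of scaled counts of genes averaging 50 CPM or more, for 38 proteasome genes and all 3719 genes, with each antagonist over PBS. The proteasome genes sit within a narrower band in the comparisons with PBS, with an SD of 0.16 against 0.23 for A740003 and 0.10 against 0.19 for A438079.

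Small ratios were nonetheless resolved by the depth. With A740003 the interval lay above 1 for 18 proteasome genes (26.1% of all genes) and below 1 for 15 (26.7%). With A438079 it lay above 1 for 14 (22.9%) and below 1 for 8 (23.2%). An interval excludes 1 more readily where counts are high, so the level matters here. At 50 CPM or more with A740003, it lay above 1 for 15 of 38 proteasome genes and 1662 of all 3719 genes. It lay below 1 for 14 and 978. With A438079 the interval lay above 1 for 13 and 1691, and below 1 for 7 and 663. At that level the share above 1 was under that of all genes with both antagonists, while the share below 1 was not. Such intervals show that these libraries differ, and say nothing of how far replicate cultures would. In the following, the ratio to PBS is given first for A740003 and then for A438079.

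**Figure D3:**
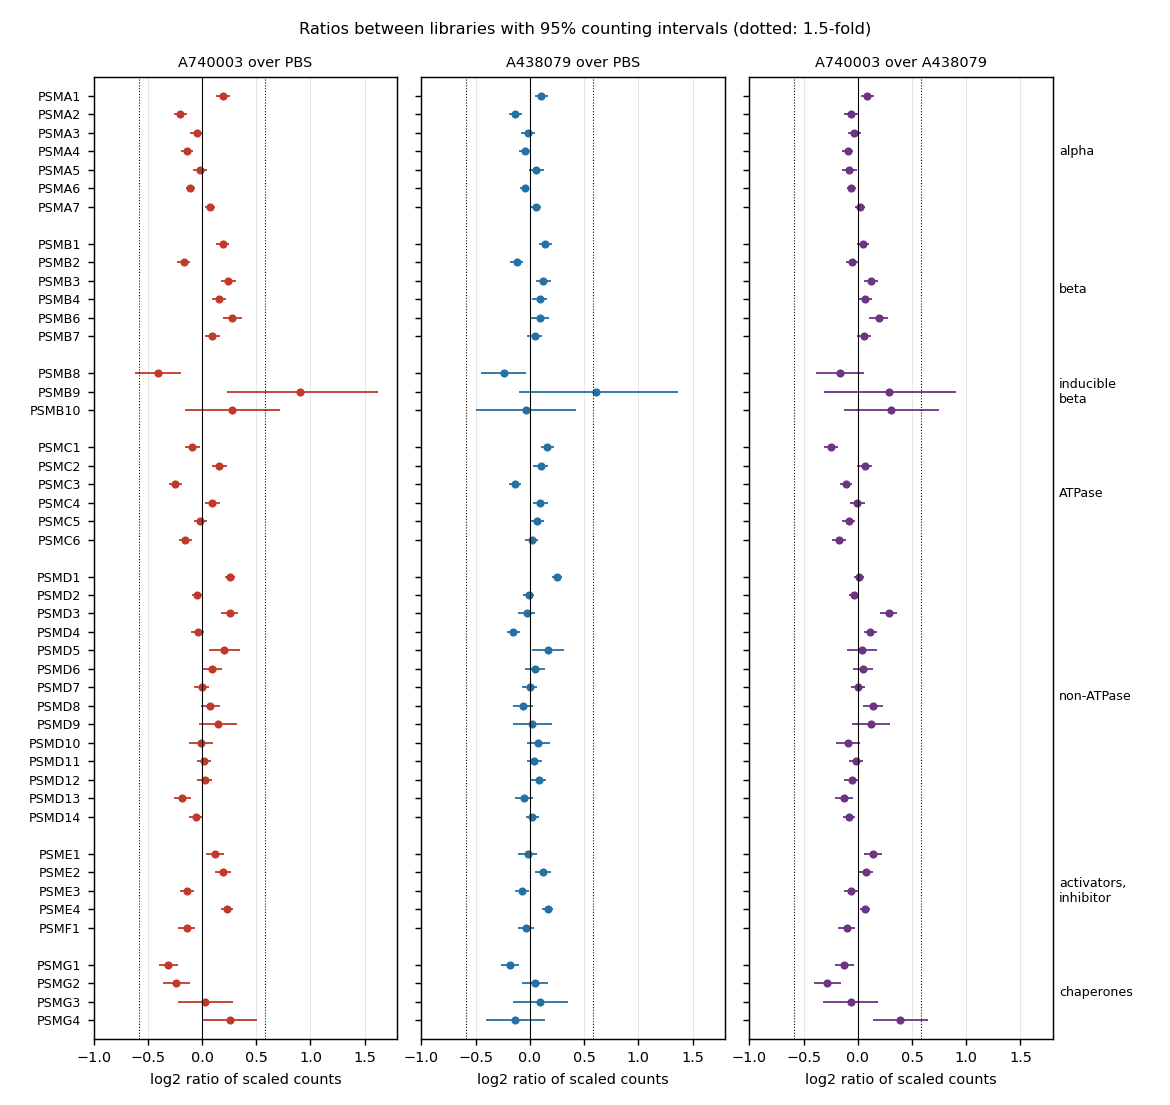
Ratio of scaled counts on a log2 axis for each of the 45 proteasome genes compared, with 95% counting intervals, for A740003 over PBS, A438079 over PBS and A740003 over A438079. Most points lie within 1.2-fold of 1, and PSMB9, with 54, 43 and 28 counts, has the highest ratio to PBS and the widest interval.

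The alpha subunits, which form the gate of the core, were level or slightly lower in the antagonist libraries. Their summed ratio to PBS was 0.971 (0.957 to 0.985) and 0.993 (0.979 to 1.01), with 2 and 3 of 7 above PBS. PSMA1 was the highest of the group, with 4601, 4212 and 3922 counts and ratios of 1.14 (1.10 to 1.19) and 1.08 (1.03 to 1.12). The PBS library was the lowest of the 3 for this gene. PSMA2 was the lowest, with 4075, 4147 and 4566 counts and ratios of 0.870 (0.834 to 0.908) and 0.910 (0.872 to 0.949). Here the PBS library was the highest. The other 5 alpha subunits ranged from 0.909 (PSMA4) to 1.05 (PSMA7) with A740003 and from 0.966 (PSMA6) to 1.04 (PSMA5) with A438079. The median log2 ratio of the group, -0.05 and -0.02, ran across the settings tried from -0.16 to 0.01 with A740003 and from -0.10 to 0.03 with A438079. The low end with A740003, with 1 of 7 above PBS, came when the trend of GC content and length was taken out, and the high ends came with upper quartile scaling, so the sign of the group depended on the setting.

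The constitutive beta subunits stood slightly above PBS in both antagonist libraries. For the group the summed ratio was 1.08 (1.06 to 1.10) and 1.04 (1.02 to 1.06), and 5 of 6 were above PBS with each. The highest with A740003 was PSMB6, the catalytic subunit of caspase-like activity, with 2473, 2109 and 1987 counts and ratios of 1.21 (1.14 to 1.29) and 1.06 (1.0 to 1.13). Its A740003 library stood above both others. PSMB3, a structural subunit, had 3943, 3533 and 3248 counts, for ratios of 1.18 (1.13 to 1.24) and 1.09 (1.04 to 1.14). PSMB1, also structural, had 5198, 4891 and 4442 counts, with ratios of 1.14 (1.10 to 1.19) and 1.10 (1.06 to 1.15). The order of libraries, A740003 then A438079 then PBS, was shared by these 3 genes. It was also that of PSMB4, with 3874, 3595 and 3385 counts and ratios of 1.12 (1.07 to 1.17) and 1.06 (1.01 to 1.12). PSMB7, the catalytic subunit of trypsin-like activity, had 3959, 3714 and 3612 counts and ratios of 1.07 (1.02 to 1.12) and 1.03 (0.984 to 1.08). PSMB2 ran the other way, with 4105, 4135 and 4504 counts and ratios of 0.889 (0.852 to 0.927) and 0.920 (0.882 to 0.960). The median log2 ratio of the group with A740003 lay between 0.15 and 0.23 under every scaling and filter tried. With A438079 it lay between 0.01, from FPKM, and 0.14.

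The inducible subunits of the immunoproteasome were rare in all 3 libraries, and they lay on both sides of PBS. PSMB8, whose constitutive counterpart was not analysed here, had 327, 356 and 422 counts, for ratios of 0.756 (0.652 to 0.875) and 0.845 (0.732 to 0.975). PBS was the highest library for it. PSMB9, the counterpart of PSMB6, had 54, 43 and 28 counts, the ratio being 1.88 (1.17 to 3.08) with A740003 and 1.54 (0.934 to 2.57) with A438079. PBS was the lowest library for this gene, and the A438079 interval includes 1. PSMB10, the counterpart of PSMB7, had 102, 80 and 82 counts and ratios of 1.21 (0.898 to 1.64) and 0.977 (0.709 to 1.35). Both of its intervals include 1. Summed, the 3 genes gave 483, 479 and 532 counts, for ratios of 0.885 (0.781 to 1.0) and 0.902 (0.796 to 1.02) with intervals that include 1. PSMB8 gave most of these counts, 422 of 532 with PBS, while 2 of the 3 genes lay above PBS with A740003 (median log2 ratio 0.28) and 1 with A438079 (-0.03). PSMB9 was the only proteasome gene called. The call rests on 54 against 28 counts and was absent when genes under 5 CPM were left out.

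The annotated spans of PSMB8 and PSMB9 share sequence positions, and whether this affected their counts was not tested. In GENCODE 29 (GRCh38), PSMB8 lies at chr6:32840717-32844703 on the minus strand, and PSMB9 at chr6:32844136-32859585 on the plus strand. PSMB9 also overlaps TAP1 and PSMB8-AS1. These are spans of whole genes, and overlap of their exons was not examined. The RefSeq start of PSMB9 used for its window lies at chr6:32854192, outside the PSMB8 span. Whether the counting used strand is not stated in the labels, so how reads were assigned where these genes overlap is not known. TAP1 itself had 414, 431 and 561 counts and ratios of 0.720 (0.632 to 0.819) and 0.770 (0.677 to 0.874), opposite in direction to PSMB9.

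Against their constitutive counterparts the inducible subunits were minor forms. Per length, PSMB9 RNA stood at 1.66%, 1.61% and 1.2% of the PSMB6 level in FPKM. PSMB10 stood at 4.66%, 3.51% and 3.45% of PSMB7. PSMB8, set against PSMB6 for want of its own counterpart, stood at 8.07%, 10.2% and 12.6%. In counts the latter share was 13.2% (11.7 to 14.8), 16.9% (15.0 to 18.9) and 21.2% (19.1 to 23.6), with counting error only. This share moves with both genes, and PSMB6 itself stood at 1.21 and 1.06 of PBS. PSMB8 alone gave 0.894 (0.767 to 1.04) between the antagonists.

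Among the ATPases the antagonists differed in sign. The summed ratio to PBS was 0.961 (0.944 to 0.978) with A740003 and 1.03 (1.01 to 1.05) with A438079, with 2 and 5 of 6 genes above PBS. PSMC2 was the highest with A740003, at 3730, 3479 and 3254 counts and ratios of 1.12 (1.07 to 1.17) and 1.07 (1.02 to 1.12). PSMC3, which contacts ubiquitin chains, was the lowest, at 4690, 4927 and 5424 counts and ratios of 0.843 (0.811 to 0.877) and 0.910 (0.875 to 0.946). Its PBS library stood above both antagonist libraries. PSMC1 had 3686, 4267 and 3822 counts, with ratios of 0.941 (0.899 to 0.984) and 1.12 (1.07 to 1.17), and was the highest with A438079. Its pseudogene PSMC1P1 had 738, 551 and 619 counts, and whether any of these were reads of PSMC1 was not tested. The rows summed gave ratios of 0.972 (0.932 to 1.01) and 1.09 (1.04 to 1.13). The other 3 ATPases ranged from 0.899 (PSMC6) to 1.07 (PSMC4) and from 1.01 (PSMC6) to 1.07 (PSMC4). The median log2 ratio of the group with A740003 took either sign across the settings tried, from -0.11 to 0.09.

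The 14 non-ATPase genes differed from each other more than they differed as a group. Summed, they gave ratios of 1.03 (1.02 to 1.04) and 1.02 (1.01 to 1.04), and their median log2 ratio took either sign across the settings tried, from -0.01 to 0.08 and from -0.03 to 0.07. PSMD1, the large scaffold of the base, was the highest with both antagonists, at 8293, 8002 and 6760 counts and ratios of 1.2 (1.16 to 1.24) and 1.19 (1.15 to 1.23). Both antagonist libraries stood above PBS and close to each other. PSMD3, a lid subunit, instead stood apart in the A740003 library alone, with 3084, 2463 and 2521 counts and ratios of 1.19 (1.13 to 1.26) and 0.979 (0.926 to 1.04). PSMD13, also of the lid, was the lowest with A740003, at 2266, 2406 and 2504 counts and ratios of 0.883 (0.833 to 0.935) and 0.963 (0.910 to 1.02). The ubiquitin receptor PSMD4 was the lowest with A438079, at 4796, 4316 and 4814 counts and ratios of 0.972 (0.933 to 1.01) and 0.898 (0.862 to 0.936). PSMD14, the deubiquitinase of the lid, had 4813, 4960 and 4890 counts and ratios of 0.960 (0.922 to 0.999) and 1.02 (0.977 to 1.06), and its partner PSMD7 had 3472, 3376 and 3391 counts and ratios of 0.999 and 0.997. All 4 of these ratios lay between 0.960 and 1.02. The other 8 ranged from 0.966 (PSMD2) to 1.15 (PSMD5) and from 0.958 (PSMD8) to 1.12 (PSMD5).

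Of the activators, PSME4 and PSME2 stood above PBS with both antagonists. PSME4, the activator PA200, had 6607, 6143 and 5491 counts and ratios of 1.17 (1.13 to 1.22) and 1.12 (1.08 to 1.16). With the trend of GC content and transcript length removed, its log2 ratio went from 0.23 to 0.06 and from 0.16 to 0.01. PSME1 and PSME2, whose products form the interferon-responsive activator PA28 together, had 2495, 2207 and 2243 counts and 3484, 3226 and 2970 counts. PSME2 gave ratios of 1.14 (1.09 to 1.2) and 1.09 (1.03 to 1.14), and PSME1 gave 1.08 (1.02 to 1.15) and 0.986 (0.929 to 1.05). PSME3, which encodes the nuclear activator PA28-gamma, ran the other way, with 3896, 3968 and 4176 counts and ratios of 0.910 (0.871 to 0.951) and 0.952 (0.911 to 0.994). The inhibitor PSMF1 had 2602, 2723 and 2799 counts and ratios of 0.907 (0.859 to 0.957) and 0.975 (0.924 to 1.03), a direction that FPKM did not share. Summed over the 5 genes, the ratio to PBS was 1.05 (1.03 to 1.07) and 1.04 (1.01 to 1.06), and the sign of the median held across the settings with A740003 alone.

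The chaperones of core assembly had the lowest summed ratio to PBS of the 7 groups in the A740003 library, at 0.854 (0.817 to 0.894), beside 0.936 (0.895 to 0.978) with A438079. Their median log2 ratio stayed below 0 under every setting tried with A740003, from -0.24 to -0.05, and took either sign with A438079, from -0.13 to 0.05. PSMG1 had 2040, 2168 and 2468 counts, for ratios of 0.806 (0.760 to 0.855) and 0.880 (0.830 to 0.933), and PBS was the highest library. Its partner in the first chaperone dimer, PSMG2, had 974, 1154 and 1119 counts and ratios of 0.849 (0.778 to 0.926) and 1.03 (0.951 to 1.12). PSMG2 was low in the A740003 library alone. PSMG3 and PSMG4 form the other dimer and were rarer. PSMG3 had 263, 268 and 251 counts and ratios of 1.02 (0.856 to 1.22) and 1.07 (0.897 to 1.28), and PSMG4 had 298, 221 and 243 counts and ratios of 1.2 (1.01 to 1.42) and 0.911 (0.756 to 1.10). For PSMG4 the A740003 library was the highest, though its interval nearly reached 1.

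The antagonists were compared directly as 1 pair, at the same dose and time, over the 45 genes. No proteasome gene was called 1.5-fold higher in the A740003 library than in the A438079 library (0 of 45, against 2.44% of all genes) or lower (0 of 45, against 2.81%). The ratio of summed counts was 0.992 (0.985 to 0.999), and the median log2 ratio was -0.0041, beside -0.0036 over all genes. Past 1.2-fold higher with A740003, with an interval that excludes 1, were PSMD3, at 1.22 (1.16 to 1.29), and PSMG4, at 1.31 (1.10 to 1.57), or 2 of 45 against 7.13% of all genes. PSMB9 and PSMB10, at 1.22 and 1.24, were past it with intervals that include 1. Past 1.2-fold lower was PSMG2, at 0.822 (0.754 to 0.896), or 1 of 45 against 7.42%. Of the 38 genes averaging 50 CPM or more, PSMD3 was past 1.2-fold higher (1 of 38, against 2.18%) and PSMG2 lower (1 of 38, against 2.53%). The interval lay above 1 for 11 of 45 genes (15.6% of all genes) and below 1 for 14 (17.4%). At 50 CPM or more it lay above 1 for 10 of 38, against 805 of 3719 genes, and below 1 for 14, against 1040. The lowest ratio among the subunits proper was that of PSMC1, 0.841 (0.804 to 0.879), which became 0.894 (0.858 to 0.931) with the pseudogene row added. By group, the ATPases gave 0.934 (0.918 to 0.951), the chaperones 0.913 (0.872 to 0.956), the alpha subunits 0.978 (0.964 to 0.992), a direction that FPKM turned, and the constitutive beta subunits 1.04 (1.02 to 1.06). PSMD1, the furthest above PBS of the well counted genes with A438079, gave 1.01 (0.978 to 1.04) between the antagonists. PSMB9, at 1.22 (0.804 to 1.87), and PSMB8, at 0.894 (0.767 to 1.04), had intervals that include 1 and are wide, so a difference of some size between the antagonists was not detectable at this depth.

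Counts and FPKM gave mostly, not wholly, the same picture. Of the 45 genes, 5 changed sign between the scales with A740003 and 8 with A438079. The interval of the count ratio excluded 1 for 1 of the first, PSMF1, and for 3 of the second, PSMA1, PSMA7 and PSMC5. PSMF1 stood furthest apart, at 92.6, 95.7 and 79.2 FPKM, for log2 FPKM ratios of 0.22 and 0.27 against log2 count ratios of -0.14 and -0.04. Its counts per unit of FPKM were 28.1, 28.5 and 35.3, a quotient to PBS of 0.795 and 0.805, where the median proteasome gene had 1.04 with both. FPKM divides a count by a length of the gene's transcripts, and why this quotient differed between libraries was not tested. PSMB9 had the highest quotient, 1.17 and 1.14, which brings its FPKM ratios below its count ratios. Of the 45 genes, 19 had a count that was not whole, and 12 overlapped another gene that held at least 10% as many counts.

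**Figure D4:**
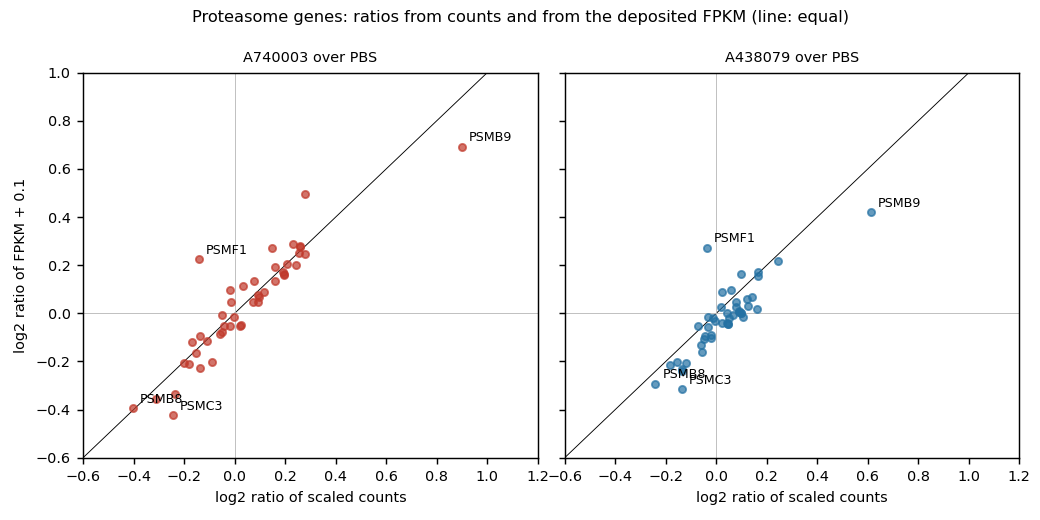
Log2 ratio to PBS from counts (x axis) against that from FPKM (y axis), 1 point per proteasome gene, for A740003 and A438079. PSMF1 lies furthest from the diagonal, at -0.14 on the count scale and 0.22 on the FPKM scale with A740003.

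Genes that act with the proteasome but lie outside the naming rule were read from lists. None of the 14 partners, 11 factors of the p97 and ubiquitin shuttle system, 6 ubiquitin and E1 genes or 10 subunits of the COP9 signalosome, a relative of the lid, was called past 1.5-fold in either antagonist library. Of all genes, 3.13% were called higher and 10.7% lower with A740003, and 1.63% and 9.43% with A438079. Their median log2 ratios to PBS were 0.0020, -0.09, 0.0041 and 0.02 with A740003, and -0.04, -0.06, 0.04 and 0.04 with A438079. POMP, which completes core assembly, had 2971, 2971 and 3094 counts and ratios of 0.936 (0.890 to 0.985) and 0.962 (0.914 to 1.01). The ubiquitin receptor ADRM1 had 2394, 2129 and 2110 counts and ratios of 1.11 (1.04 to 1.17) and 1.01 (0.951 to 1.07), and the small lid subunit SEM1 had 2086, 1923 and 2032 counts and ratios of 1.0 and 0.948. All of these ratios lay between 0.936 and 1.11. AKIRIN2, which carries proteasomes into the nucleus, was lower with both, at 448, 400 and 503 counts and ratios of 0.869 (0.763 to 0.989) and 0.797 (0.697 to 0.910). TXNL1, a thioredoxin-like protein bound to the cap, had 1591, 1500 and 1838 counts and ratios of 0.844 (0.789 to 0.903) and 0.818 (0.763 to 0.876), while the ubiquitin ligase UBE3C had 1940, 1996 and 1730 counts and ratios of 1.09 (1.02 to 1.17) and 1.16 (1.08 to 1.23). In the other lists the genes furthest from PBS with A740003 were UBQLN2, a shuttle factor, at ratios of 1.27 and 1.06, the E1 enzyme UBA6, at 1.29 and 1.14, and COPS9, at 1.40 and 1.27.

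The list of the NRF1 pathway did hold genes past 1.5-fold. NFE2L1 had 4416, 4224 and 4051 counts, for ratios of 1.06 (1.02 to 1.11) and 1.04 (1.0 to 1.09). Of 12 genes, 0 were at least 1.5-fold higher with either antagonist and 3 were at least 1.5-fold lower with each, where 10.7% and 9.43% of all genes were lower. These were SYVN1, MAFF and MAFG with A740003, and SYVN1, MAFF and MAFK with A438079. With the trend of GC content and transcript length removed, every one of these small MAF genes was within 1.5-fold. The log2 ratio of MAFF went from -0.76 to -0.21 with A740003 and from -0.72 to -0.21 with A438079. SYVN1, a ubiquitin ligase of the endoplasmic reticulum that turns NRF1 over, had 84, 56 and 149 counts and ratios of 0.550 (0.416 to 0.723) and 0.377 (0.272 to 0.515). MAFG, a small MAF partner of NRF1, had 239, 242 and 355 counts and ratios of 0.657 (0.555 to 0.776) and 0.683 (0.578 to 0.806), and its log2 ratio with A740003 went from -0.61 to -0.26 once the trend was removed. MAFK, another, had 98, 81 and 143 counts and ratios of 0.668 (0.512 to 0.870) and 0.567 (0.427 to 0.750). Without the trend its log2 ratio turned from -0.58 to 0.10 with A740003 and went from -0.81 to -0.19 with A438079. BTRC, a subunit of the ligase that degrades NRF1, was higher, with 1391, 1251 and 954 counts and ratios of 1.42 (1.31 to 1.55) and 1.31 (1.21 to 1.43). Among 8 interferon and antigen processing genes compared, 1 was at least 1.5-fold lower with each antagonist and 0 were higher, a share near that of all genes lower (10.7% and 9.43%). It was TAPBP, which tethers the peptide transporter to MHC class I, with 133, 171 and 297 counts and ratios of 0.437 (0.353 to 0.538) and 0.577 (0.475 to 0.699). With the trend removed its log2 ratio with A438079, -0.58, was just within 1.5-fold.

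Set against the promoter motifs, the proteasome genes with an antioxidant response element had a higher median ratio than those without, but this was 1 of 7 motifs examined and others split them as well. With A740003 the median log2 ratio to PBS was 0.15 over the 15 genes with a match, 11 of them above PBS, and -0.05 over the 24 without, 8 of them above. With A438079 it was 0.08 (11 of 15 above) and -0.02 (10 of 24). After removal of the trend with GC content and transcript length, the medians were 0.09 and -0.06 with A740003, and 0.05 and -0.06 with A438079. Over all genes compared, those with the element had a median of -0.01 against 0.01 without with A740003, and -0.0047 against 0.0027 with A438079. The interferon-stimulated element gave 0.16 over 7 genes with it (5 above PBS) against -0.02 over 32 without with A740003, and the other order, -0.03 (2 of 7 above) against 0.03, with A438079. For the CCAAT box the genes with it were lower, at -0.02 (6 of 18 above) against 0.09 (13 of 21) with A740003. The GC box gave -0.02 against 0.09 with A740003, the gamma-activated site -0.09 against 0.02, the ETS site 0.01 against -0.01 and the TATA box 0.03 against -0.0021. With A438079 the order turned for the GC box, at 0.02 against -0.02, and for the ETS site, at 0.02 against 0.04. It held for the CCAAT box, the gamma-activated site and the TATA box. With the trend removed, the order turned for the ETS site with A740003, at -0.05 against 0.05. It also turned for the GC box with A438079, at -0.02 against -0.0015. The other orders, not those of the antioxidant response element alone, held after removal of the trend. The genes with an antioxidant response element include PSMB3, PSMB9, PSMD1 and PSMD3, which were above PBS with A740003. Those below PBS with A740003 were PSMA4, PSMC5, PSMG1 and PSMG2. The motif split was chosen with the ratios known and the genes are not replicates, so it is given as a description.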

How the data were processed

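RNA-seq was made from 3 HepG2 libraries with a SMARTER mRNA kit, per the labels, 1 for each of A740003, A438079 and PBS. The authors deposited expected counts and, in another table, FPKM of the same genes, units read from the names and values of the tables. No label names the tool that made them. GRCm38, which is a mouse genome, is the build in the submitters' processing notes, while the rows carry human Ensembl identifiers, so the build is unclear. Of the values above 0, between 33.3% and 35.1% were not whole, and counts were rounded. The 116 rows without an Ensembl gene identifier are numbered loci of the authors' own. They held between 0.0775% and 0.0853% of the counts and were kept in library sizes and among the genes compared where their level allowed.

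Counts were scaled by TMM factors of 1.01, 0.989 and 1.00 (edgeR 4.0.16, R 4.3.3), so that 1 CPM was 19.9, 19.4 and 19.4 counts. The ratio of scaled counts was given an exact conditional binomial interval (Clopper-Pearson, 95%, scipy 1.17.1), and log2 ratios used a pseudocount of 0.5 counts. With 1 library per treatment, no model across genes could be fitted with error and no p-value was made. The steps were tested on simulated data. The labels do not say whether the libraries came from separate cultures. GC content and transcript length came from the longest transcript of each gene in GENCODE 29, and the trend was the median of the 201 nearest genes in rank. Alternatives were other scalings (DESeq2 1.42.0 size factors among them), filters, FPKM with pseudocounts of 0.1 and 1, whole counts only (tolerance 0.005) and other thresholds.

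The genes and lists were chosen with earlier results of these data known. Named in each group were the genes with the highest and lowest ratio to PBS among those with at least 5 CPM, genes past 1.5-fold, catalytic pairs and genes under 1 CPM. Of the other lists, up to 3 genes with the largest ratio were named, with POMP, ADRM1, SEM1 and NFE2L1 in any case. Other named genes were chosen after their values were seen.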

Additional observations from a re-analysis of the deposited data

How the results depend on the processing

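Counts are of genes past the fold with an interval that excludes 1, except with FPKM, where no interval was made and the fold alone was used. The count of proteasome genes at least 1.5-fold higher with A740003 over PBS, 1 as reported, became 0 with a mean of at least 5 CPM, 0 with a mean of at least 50 CPM (chosen after seeing the data), 0 with FPKM and a pseudocount of 1, 0 at 2-fold and 2 at 1.2-fold. The count lower with A740003 over PBS became 2 at 1.2-fold. With A740003 over A438079, 2 were higher and 1 lower at 1.2-fold. PSMF1 reversed with A740003 over PBS, to a log2 ratio of 0.22 with either FPKM pseudocount, and PSMA1 with A438079 over PBS, to -0.014 with either. The cause was not tested. The median log2 ratio of the proteasome genes lay between -0.0078 and 0.08 with A740003 over PBS, between -0.02 and 0.09 with A438079 over PBS, and between -0.03 and 0.03 with A740003 over A438079. The median of all genes lay between -0.05 and 0.07 in every setting and comparison. No paired analysis was possible because each treatment had 1 library, and leaving out a replicate was not possible either. Depth limits PSMB9, PSMB10, PSMG3 and PSMG4, the rarest of the genes compared.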
